A study of Homo sapiens with 9 samples.

Results

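The comparison is of MDA-MB-231 cells made to express the potassium channel Kir2.1 with MDA-MB-231 cells made to express RFP, across every gene with enough counts to test. MDA-MB-231 is an established cell line of triple negative breast cancer, with a mesenchymal character. Per the labels, both groups were transduced with lentivirus made in HEK293T cells and sorted by fluorescence. The Kir2.1 group carried KCNJ2 with the substitution Y242F joined to EGFP, and the control group carried red fluorescent protein (RFP) alone. The 6 libraries are the 3 Kir2.1 and the 3 RFP libraries among the 8 of the deposited count table. Of the 60715 genes in the table, 16687 had enough counts to test, and 16686 remain with KCNJ2 set aside as the transgene. The labels describe the replicates as separate biological samples and the library kit as stranded and for mRNA. They do not say whether transduction was repeated for each replicate, so p-values measure the spread between cultures. The channel, its substitution, the fluorescent protein joined to it and the outgrowth of each sorted population cannot be told apart in this design. In bulk RNA, fewer cells of a kind and less RNA per cell cannot be told apart either.

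Kir2.1 belongs to the inward rectifiers, channels that pass potassium into a cell more readily than out of it and that hold the resting membrane potential near the potassium equilibrium. The membrane potential sets the driving force for calcium entry and for many transporters, and it differs between quiescent, dividing and cancer cells. Bulk RNA measures the transcript levels that accompany the channel, not the potential itself.

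The deposited counts totalled 30970235 to 42753422 per library. Libraries of the same group correlated across genes at 0.985 to 0.992 in Kir2.1 and 0.976 to 0.989 in RFP, and libraries of different groups at 0.935 to 0.951, on the log2 CPM scale. CPM is the count of a gene scaled to the size of its library, with TMM factors. As the check of the labels, KCNJ2 had 843, 1384 and 1189 CPM across the Kir2.1 libraries, against 0.0239, 0 and 0.0863 CPM across the RFP libraries. The vimentin gene VIM, a mesenchymal marker of the line, had 4005, 2920.2 and 3369 CPM in the Kir2.1 libraries and 3917, 3751 and 2766 CPM in the RFP libraries. It did not pass (log2 fold change -0.02). Other mesenchymal genes moved, with SPARC and ZEB2 lower (-8.47 and -0.76) and S100A4 and MSN higher (2.90 and 1.05). Of 13 tested mesenchymal markers 3 rose and 2 fell, against 12.2% and 8.26% of all genes tested (1 fell without any 1 library other than Kir2.1 replicate 3), and their summed level was 6871 to 7711 CPM in the Kir2.1 and 5453 to 6751 CPM in the RFP libraries. EPCAM, a surface marker of epithelial cells, averaged 9.79 ± 1.74 CPM in Kir2.1 cells and 15.7 ± 2.63 CPM in RFP cells (mean ± SD, n = 3 in each group, as in every average here). Of 5 tested leukocyte markers CD14 and LYZ rose and CD8A fell (not called without any 1 library other than Kir2.1 replicate 1), at summed levels of 116 to 148.7 CPM in the Kir2.1 and 134 to 266.8 CPM in the RFP libraries. Of 6 tested genes typical of HEK293T, the cells that made the virus, 4 fell and none rose, at summed levels of 10.74 to 12.38 CPM in the Kir2.1 and 17.12 to 23.68 CPM in the RFP libraries. SALL4 of that list was at 0 in every Kir2.1 library, and the number that fell was 2 without RFP replicate 2 or Kir2.1 replicate 1 and 1 without RFP replicate 3. The part of such cells in the results was not tested.

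In all, 3417 genes (20.5%) differed between Kir2.1 and RFP cells by edgeR's quasi-likelihood test at a Benjamini-Hochberg adjusted p under 0.05, the rule behind every "rose", "fell" and adjusted p here. A value given with a gene in parentheses is its fitted log2 fold change, Kir2.1 over RFP, with its SE. Of these, 2039 (12.2%) were higher and 1378 (8.26%) lower in Kir2.1 cells. At least a 2-fold fitted change was shown by 2233 genes (13.4%), 1381 higher (8.28%) and 852 lower (5.11%). A change of at least 5 on the log2 scale was shown by 168 genes that rose and 81 that fell. The 3 libraries of each group did not overlap for 7462 genes (44.7%). The median log2 fold change of all tested genes was -0.007, the median of its size was 0.412 and the median SE was 0.256. For 2137 genes (12.8%) the 95% interval of the fold change lay within 1.5-fold in either direction. Protein-coding genes were called in 21.9% of 13227 tested, long intergenic noncoding RNAs in 21.4% of 860 and antisense RNAs in 16.4% of 939. Leaving out Kir2.1 replicate 2 left 1974 called genes and leaving out RFP replicate 2 left 2142. In the full fit and in all 6 fits that left out 1 library, 1672 genes were called, 1082 of them higher and 590 lower. Below, a call said to have held is a call made in all 7 of these fits.

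**Figure D1:**
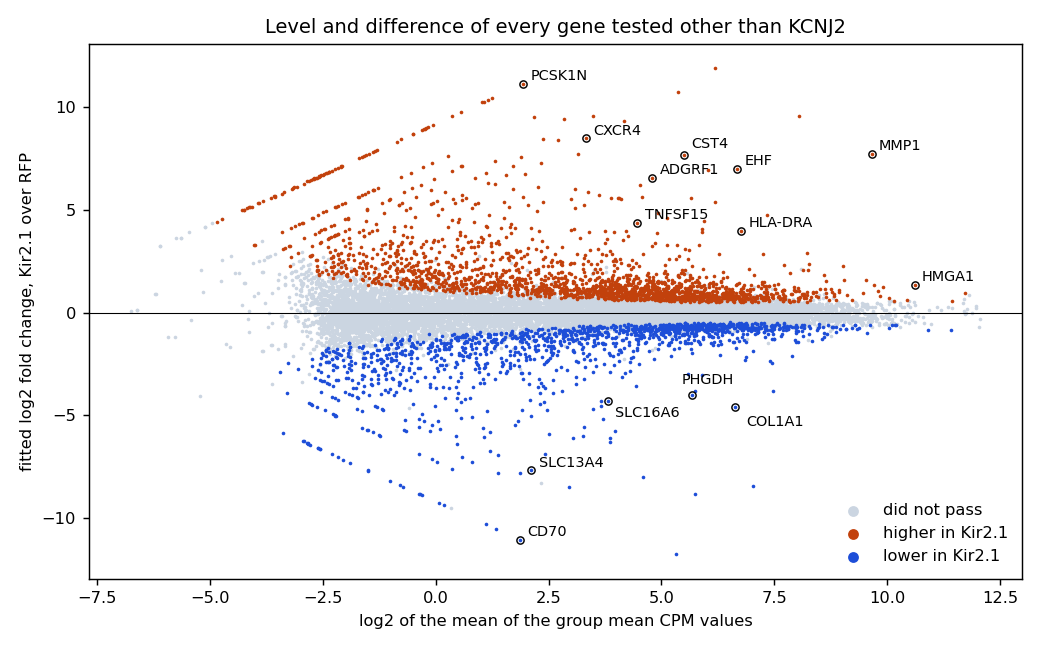
Fitted log2 fold change, Kir2.1 over RFP (vertical axis), against the log2 of the mean CPM of the groups (horizontal axis), for each tested gene other than KCNJ2 with counts in these 6 libraries. Orange points are the 2039 genes that rose, blue points the 1378 that fell and grey points those that did not pass; some genes are circled and named, and the straight lines of points at the edges are genes at 0 in one group.

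Some genes were close to silent in one group. Of the called genes, 17 averaged under 0.1 CPM in RFP and at least 5 CPM in Kir2.1 cells, and 9 the reverse. PCSK1N, which encodes proSAAS, an inhibitor of a prohormone convertase (ENSG00000102109.9, chromosome X, 48831094 to 48835633 on GRCh38), had 10.7, 7.46 and 4.69 CPM in the Kir2.1 libraries and no counts in any RFP library. Against a limit of 3 counts over the RFP group it was at least 286-fold higher, and at least 181.5-fold higher without RFP replicate 1. CXCR4, the receptor of the chemokine CXCL12 (ENSG00000121966.7, chromosome 2, 136114349 to 136118165), had 24.2, 18.3 and 17.7 CPM across the Kir2.1 libraries, against 0.0716, 0.0525 and 0.0288 CPM across the RFP libraries. The groups were far apart, with a log2 fold change of 8.5, SE 0.43, adjusted p = 1.45e-07. CCDC3, a secreted protein of fat and endothelial cells, had 9.57, 7.59 and 10.05 CPM in the Kir2.1 libraries and 1 count in the RFP group, which lay in replicate 3. By counts it was 1036 times higher (95% interval 185.5 to 40960), 657.6 times (117.7 to 26000) without RFP replicate 1 and at least 240.7-fold higher without RFP replicate 3.

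In the other direction, CD70, a TNF family ligand of T and B cell costimulation (ENSG00000125726.11, chromosome 19, 6583183 to 6604103), had no counts in any Kir2.1 library and 4.58, 6.35 and 11.1 CPM in the RFP libraries. It was at least 246.6-fold lower, and at least 158.7-fold and 161.5-fold lower without Kir2.1 replicate 2 and 3. SLC13A4, a sulfate transporter (ENSG00000164707.15, chromosome 7, 135681237 to 135729258), had 0.0646, 0.027 and 0.0279 CPM across the Kir2.1 libraries, against 8.64, 8.9 and 8.37 CPM across the RFP libraries. With 4 counts in the Kir2.1 group it was 224.3 times lower by counts (95% interval 87.34 to 825). PCSK6, a proprotein convertase of the secretory pathway, had 0.0323, 0.027 and 0.0558 CPM across the Kir2.1 libraries, against 2.01, 3.26 and 10.1 CPM across the RFP libraries. RFP replicate 3 was the highest of these, and the log2 fold change of -6.93 was -5.98 without it. Counts of such genes carry counting error beside the spread of cultures, and these limits hold for counting error only. The values given as at least leave out the counting error of the group with counts.

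The called genes were not spread evenly over the chromosomes, and the gene groups described after this lie in part on the chromosomes concerned. On chromosome 12, 32 genes rose and 210 fell of 896 tested (median log2 fold change -0.37), and on chromosome 15, 21 rose and 107 fell of 524 (median -0.31). On chromosome X 161 rose and 44 fell of 546 (median 0.31), on chromosome 6 193 rose and 55 fell of 900 (median 0.20), and on chromosome 19 228 rose and 48 fell of 1139 (median 0.27). For genes averaging at least 5 CPM in a group, the median deviation from the mean of the 6 libraries was taken per library on the log2(CPM + 0.5) scale. On chromosome 12 it was -0.21, -0.182 and -0.15 in the Kir2.1 libraries and 0.189, 0.167 and 0.221 in the RFP libraries. On chromosome X it was 0.126, 0.192 and 0.173 in the Kir2.1 libraries and -0.157, -0.169 and -0.199 in the RFP libraries. For both chromosomes the groups were apart by more than the spread within them. On chromosome 19 the spread within groups was wider, at 0.243, 0.115 and 0.058 in the Kir2.1 libraries and -0.006, -0.099 and -0.316 in the RFP libraries, and RFP replicate 3 stood lowest.

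**Figure D2:**
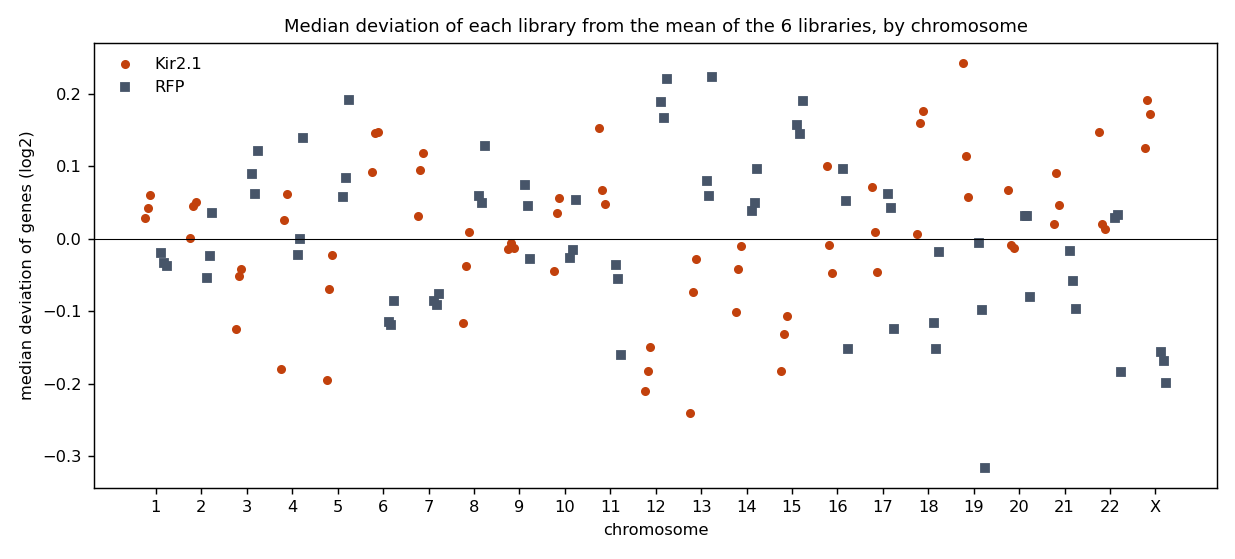
Median deviation of each library from the mean of the 6 libraries (vertical axis, log2(CPM + 0.5)) for genes averaging at least 5 CPM in a group, by chromosome (horizontal axis). Orange circles are the 3 Kir2.1 libraries and grey squares the 3 RFP libraries; the groups lie on opposite sides of 0 on chromosomes 1, 3, 5, 6, 7, 11, 12, 13, 14, 15, 18, 19, 21 and X.

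Within chromosomes the shift was uneven. Of 253 bins of 10 Mb with at least 15 genes, 15 had a median log2 fold change of 0.4 or more and 19 of -0.4 or less. The bins that stood highest were on chromosome X from 40 to 60 Mb, with medians of 0.90 and 0.85, and the lowest were on chromosome 15 from 80 to 90 Mb and chromosome 12 from 20 to 30 Mb, with medians of -0.89 and -0.85. On the short arm of chromosome 6 between 28 and 46 Mb, 135 of 313 tested genes rose and 6 fell (median 0.60), and without the HLA genes 111 of 286 rose (median 0.57). The 1444 genes of the bins shifted up had 38.1% called and the 1057 genes of those shifted down 32.5%. Among the other 14185 genes 17.8% were called, 1478 higher and 1046 lower, 1705 of them by at least 2-fold. These bins and their limits were chosen after the values were seen. DNA copy number was not measured, and its part in any of these results was not tested. PCSK1N, CCDC3 and VIM lie in bins shifted up. Of the genes named below, those in a shifted bin are given as such.

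Genes of antigen presentation rose more often than any other list with 20 or more tested members. Class I molecules display peptides to CD8+ T cells, class II molecules display them to CD4+ T cells, and TAP and the immunoproteasome supply class I peptides. Of 32 tested genes 17 rose and none fell (median log2 fold change 0.66), against 12.2% and 8.26% of all genes. HLA-DRA, a class II alpha chain (ENSG00000204287.14, chromosome 6, 32439842 to 32445046), had 165, 275 and 176 CPM across the Kir2.1 libraries, against 3.96, 14.9 and 19.97 CPM across the RFP libraries. Every Kir2.1 library was far above every RFP library (log2 fold change 3.99, SE 0.72, adjusted p = 0.00577), and it was no longer called when low counts were not filtered. HLA-DMA, which loads peptides onto class II, had 39.5, 53.2 and 34.1 CPM across the Kir2.1 libraries, against 2.79, 5.93 and 8.92 CPM across the RFP libraries (log2 fold change 2.85, SE 0.52, adjusted p = 0.00387). CIITA, the coactivator of class II genes, had 26.5, 44.3 and 31.2 CPM across the Kir2.1 libraries, against 6.33, 16.3 and 12.4 CPM across the RFP libraries. The groups did not overlap, but its call (1.54, SE 0.43, adjusted p = 0.0287) did not pass without RFP replicate 1 or 3 or Kir2.1 replicate 2 or 3.

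The class I genes HLA-B and HLA-C rose with them. HLA-B had 967, 876 and 761 CPM across the Kir2.1 libraries, against 152, 173 and 209.8 CPM across the RFP libraries. HLA-C averaged 366 ± 39.8 CPM in Kir2.1 cells and 95.8 ± 14 CPM in RFP cells. Log2 fold changes were 2.28 and 1.93, and both calls held. The peptide transporter TAP1 averaged 134 ± 10.2 CPM in Kir2.1 cells and 40.5 ± 3.03 CPM in RFP cells (1.72, SE 0.17, adjusted p = 2.73e-05), while TAP2 averaged 111 ± 5.77 CPM in Kir2.1 cells and 82.2 ± 4.3 CPM in RFP cells and did not pass (0.43, SE 0.16, adjusted p = 0.0731). B2M, the light chain shared by class I molecules, had 960.1, 980.2 and 1096 CPM in the Kir2.1 and 624, 919.9 and 1258 CPM in the RFP libraries, which overlap (0.12, SE 0.24, adjusted p = 0.77). CD274, which encodes PD-L1, averaged 30.7 ± 2.07 CPM in Kir2.1 cells and 30.4 ± 5.02 CPM in RFP cells (0.01, SE 0.18, adjusted p = 0.968). Of the 17 genes that rose, 13 lie on chromosome 6, where all the members named here are in bins shifted up. Of the 16 members outside shifted bins 7 rose and none fell. HLA genes have near-identical paralogs, among which the counting could divide reads. Without Kir2.1 replicate 1 or 2 the number that rose was 10 and 11, and 9 calls held.

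Adhesion genes of the immunoglobulin superfamily moved in both directions, 7 of 29 higher and 5 lower (median 0.35), of which 6 and 4 held. Of this list 41.4% were called, against 20.5% of all genes. ICAM1, the ligand of leukocyte integrins, had 224, 264 and 317 CPM across the Kir2.1 libraries, against 20.5, 42.3 and 50.3 CPM across the RFP libraries. CADM1, a cell adhesion molecule of epithelia and nerves (ENSG00000182985.17, chromosome 11, 115169218 to 115504957), had 5.59, 8.08 and 7.48 CPM across the Kir2.1 libraries, against 58.7, 83.9 and 158 CPM across the RFP libraries. Kir2.1 libraries were above all RFP libraries for ICAM1 and below all of them for CADM1 (log2 fold changes 2.83, SE 0.33, adjusted p = 0.000109, and -3.83, SE 0.34, adjusted p = 1.24e-05). IGSF3 fell with it, at 3.59, 4.27 and 4.94 CPM across the Kir2.1 libraries, against 25, 29.8 and 42.3 CPM across the RFP libraries (-2.92). NRCAM, an adhesion molecule of neurons, averaged 0.622 ± 0.156 CPM in Kir2.1 cells and 9.31 ± 5.54 CPM in RFP cells, with a log2 fold change of -3.9, and -3.30 without RFP replicate 1. Of 17 tested cadherins 2 rose and 4 fell (35.3% called against 20.5% of all genes). CDH11, a cadherin of mesenchymal cells, had 116, 178 and 146 CPM across the Kir2.1 libraries, against 0.0239, 0.0788 and 0 CPM across the RFP libraries. It was nearly without counts in the RFP libraries, and its log2 fold change of 11.9 was 13.12 without RFP replicate 2. CDH4, retinal cadherin, averaged 52.7 ± 10.4 CPM in Kir2.1 cells and 142 ± 37.7 CPM in RFP cells and fell (-1.43, SE 0.23, adjusted p = 0.000941). In the tetraspanin family 4 of 23 rose and 2 fell, 26.1% called against 20.5% of all genes. TSPAN1 of an upshifted bin averaged 15.5 ± 1.78 CPM in Kir2.1 cells and 3.98 ± 0.801 CPM in RFP cells (1.96), and of the 2 that fell 1 was called without RFP replicate 2 or 3 or any Kir2.1 library.

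Integrin subunits had 5 of 15 members higher and none lower, 33.3% called against 20.5% of all genes. The number called higher was 3 without RFP replicate 1 or 2 or Kir2.1 replicate 2 or 3. ITGB5, a partner of the alpha v subunit, had 234, 227 and 227 CPM across the Kir2.1 libraries, against 131, 133 and 112 CPM across the RFP libraries (0.87, SE 0.20, adjusted p = 0.00948). In the tight junction list 4 of 23 rose and 3 fell (30.4% called), and 1 fell without Kir2.1 replicate 1 or 2. CLDN2, a claudin that forms a cation pore, had 5.33, 4 and 7 CPM across the Kir2.1 libraries, against 0.0477, 0.499 and 0.748 CPM across the RFP libraries. CLDN11, a claudin of myelin and testis, had 0.42, 0.595 and 0.419 CPM across the Kir2.1 libraries, against 4.35, 4.94 and 4.14 CPM across the RFP libraries. CLDN2 rose and CLDN11 fell (log2 fold changes 3.67, SE 0.58, adjusted p = 0.000964, and -3.21, SE 0.33, adjusted p = 7.1e-05), and the value of CLDN2 was 4.32 without RFP replicate 3. Among S100 proteins and annexins 5 of 21 rose and 2 fell (33.3% called). ANXA4, a calcium-dependent membrane binding protein, averaged 51.2 ± 5.63 CPM in Kir2.1 cells and 24.9 ± 6.28 CPM in RFP cells, and S100A16, a calcium-binding protein, 505 ± 65.4 CPM in Kir2.1 cells and 229.6 ± 20.3 CPM in RFP cells (log2 fold changes 1.04 and 1.14). Neither fall held, with 1 called without RFP replicate 1 or Kir2.1 replicate 3 and 0 without RFP replicate 2 or 3 or Kir2.1 replicate 1 or 2.

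G protein-coupled receptors and receptors of other families followed no common direction. Of 55 tested G protein-coupled receptors 13 rose and 9 fell (40.0% called against 20.5% of all genes, median -0.07). Without Kir2.1 replicate 2 the number that fell was 4. ADGRF1, an adhesion receptor (ENSG00000153292.16, chromosome 6, 46997703 to 47042363), had 61.6, 74.5 and 28.7 CPM across the Kir2.1 libraries, against 0.334, 0.473 and 0.95 CPM across the RFP libraries, with Kir2.1 replicate 3 below the other Kir2.1 libraries. Its log2 fold change was 6.57, SE 0.76, adjusted p = 0.000432, and it lies in a bin shifted up. P2RY2, a receptor of extracellular ATP, had 38.7, 50.5 and 43.9 CPM across the Kir2.1 libraries, against 14.2, 21.2 and 14.1 CPM across the RFP libraries. The groups did not overlap (log2 fold change 1.43, SE 0.22, adjusted p = 0.000726). GPR176 averaged 26.1 ± 4.8 CPM in Kir2.1 cells and 3.58 ± 0.571 CPM in RFP cells (log2 fold change 2.86). GPRC5A, a receptor induced by retinoic acid, averaged 141 ± 7.73 CPM in Kir2.1 cells and 354 ± 59.9 CPM in RFP cells (log2 fold change -1.33). GPRC5A lies in a bin shifted down. NGFR, the low-affinity neurotrophin receptor, had 29.9, 32.3 and 24.1 CPM across the Kir2.1 libraries, against 0.668, 0.446 and 0.662 CPM across the RFP libraries (5.59, SE 0.59, adjusted p = 0.000125). IL6R, the interleukin 6 receptor, had 1.26, 2.19 and 1.26 CPM across the Kir2.1 libraries, against 17, 9.79 and 6.39 CPM across the RFP libraries (-2.81, SE 0.43, adjusted p = 0.000755). The cytokine and TNF receptors had 9 rises and 5 falls among 47 (29.8% called), and 3 and 3 of these held. The number that rose was 3, 5, 4, 4 and 5 without RFP replicate 1 or 2 or Kir2.1 replicate 1, 2 or 3, and the number that fell was 3 without Kir2.1 replicate 1 or 2.

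Receptor tyrosine kinases had 5 of 23 members higher and none lower, 21.7% called against 20.5% of all genes. Of the 5 rises 3 held. KDR, the main VEGF receptor of endothelium, had 11.1, 14.8 and 13.6 CPM across the Kir2.1 libraries, against 2.7, 2.7 and 2.16 CPM across the RFP libraries. ROR1, a receptor of Wnt5a, had 31.7, 54.5 and 48.7 CPM across the Kir2.1 libraries, against 16.3, 15.8 and 13.9 CPM across the RFP libraries. MET, the receptor of hepatocyte growth factor, had 245, 369 and 379 CPM across the Kir2.1 libraries, against 179.6, 155 and 134 CPM across the RFP libraries. For each of the 3 the lowest Kir2.1 library was above the highest RFP library (log2 fold changes 2.38, 1.55 and 1.08, adjusted p = 2.06e-05, 0.000547 and 0.00311). Of 4 tested endothelial markers KDR alone rose (2 rose without RFP replicate 1), and their summed level was 212.3 to 228 CPM in the Kir2.1 and 132 to 164.3 CPM in the RFP libraries. Without RFP replicate 2 the number of kinases that rose was 3, and without RFP replicate 3 a kinase was called lower. Among ephrins and Eph receptors 4 of 17 rose and 2 fell (35.3% called). None of those rises held, and the number was 1 without Kir2.1 replicate 1 and 2 without RFP replicate 2 or 3 or Kir2.1 replicate 2 or 3.

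Guidance receptors and their ligands had 8 members higher and 9 lower of 38 (median 0.18), 44.7% called against 20.5% of all genes. NEO1, neogenin, a receptor of netrins and RGM proteins (ENSG00000067141.17, chromosome 15, 73051710 to 73305206), had 28, 35.2 and 34.4 CPM across the Kir2.1 libraries, against 3.39, 2.78 and 2.07 CPM across the RFP libraries. It rose (3.56, SE 0.24, adjusted p = 1.26e-06) although its bin was shifted down. The neuropilins bind semaphorins and VEGF, and of these NRP2 averaged 41.2 ± 9.71 CPM in Kir2.1 cells and 10.7 ± 3.53 CPM in RFP cells. NRP1 averaged 438 ± 87.2 CPM in Kir2.1 cells and 221 ± 41.6 CPM in RFP cells. SEMA4D averaged 49 ± 6.13 CPM in Kir2.1 cells and 18.2 ± 3.96 CPM in RFP cells. These 3 rose by 1.95, 0.99 and 1.43 on the log2 scale, and NRP1 lies in a bin shifted up. SEMA3E, a secreted repellent of vessels and axons, had 0.614, 0.892 and 1.03 CPM across the Kir2.1 libraries, against 11.8, 10.2 and 5.5 CPM across the RFP libraries. SEMA3F averaged 2.72 ± 0.299 CPM in Kir2.1 cells and 8.43 ± 2.63 CPM in RFP cells. They fell (log2 fold changes -3.43, SE 0.36, adjusted p = 4.65e-05, and -1.63, SE 0.31, adjusted p = 0.00292). The number that fell was 5 without RFP replicate 2 or Kir2.1 replicate 1 or 3.

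Endogenous ion channels and pumps differed for some members. Apart from KCNJ2, 4 of 24 tested potassium channel subunits rose and 4 fell (33.3% called against 20.5% of all genes). KCNN4, the calcium-activated channel of intermediate conductance, had 78.8, 56.7 and 60.6 CPM across the Kir2.1 libraries, against 24.8, 30.8 and 32.9 CPM across the RFP libraries, and lies in a bin shifted up. KCNQ3, a subunit of the M-current, had 0.55, 0.757 and 1.17 CPM across the Kir2.1 libraries, against 7.52, 5.15 and 3.51 CPM across the RFP libraries. Neither gene's groups overlapped (log2 fold changes 1.15, SE 0.19, adjusted p = 0.00142, and -2.7, SE 0.41, adjusted p = 0.000662). The number that rose was 2 without RFP replicate 2, and the number that fell was 2 without RFP replicate 1. Of 56 sodium, calcium and chloride channels and pumps 10 rose and 5 fell (26.8% called, median -0.09). SCNN1A, the alpha subunit of the epithelial sodium channel, had 7.86, 10.7 and 12.1 CPM across the Kir2.1 libraries, against 0.716, 1.65 and 2.82 CPM across the RFP libraries (2.57, SE 0.41, adjusted p = 0.000958), and its bin was shifted down. CLCN5, an endosomal chloride exchanger on chromosome X, averaged 23 ± 5.81 CPM in Kir2.1 cells and 6.88 ± 2.05 CPM in RFP cells in a bin shifted up (1.74), and ATP1B1, the beta subunit of the sodium pump, 206 ± 32.4 CPM in Kir2.1 cells and 101 ± 9.58 CPM in RFP cells (1.02). ORAI1, the pore of store-operated calcium entry, averaged 60.3 ± 13.2 CPM in Kir2.1 cells and 31.9 ± 5.36 CPM in RFP cells (0.92, SE 0.22, adjusted p = 0.011), not called without Kir2.1 replicate 1. Of the channels that fell, 3 were called without RFP replicate 1 or 3 or Kir2.1 replicate 2, and 2 without Kir2.1 replicate 1 or 3.

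Transporters of amino acids, glucose and lactate were lower for 11 of 41 members and higher for 4 (median -0.08). Of this list 36.6% were called, against 20.5% of all genes. SLC38A1, a glutamine transporter in a bin of chromosome 12 shifted down, had 185, 319 and 291 CPM across the Kir2.1 libraries, against 571, 504 and 572 CPM across the RFP libraries. Its groups did not overlap (-1.05, SE 0.24, adjusted p = 0.00989). SLC7A11, the cystine importer, had 41.3, 45.2 and 42.1 CPM across the Kir2.1 libraries, against 387, 116 and 73.6 CPM across the RFP libraries. RFP replicate 1 stood far above the other RFP libraries, and the log2 fold change of -2.16 was -1.15 without it. The gene was not called without Kir2.1 replicate 2 or 3. SLC16A6, a monocarboxylate transporter, had 1.33, 1.89 and 0.809 CPM across the Kir2.1 libraries, against 7.62, 14.6 and 58.5 CPM across the RFP libraries, and its log2 fold change of -4.32 was -3.04 without RFP replicate 3. SLC2A1, the glucose transporter GLUT1, had 626, 570.3 and 568 CPM across the Kir2.1 libraries, against 260.4, 357 and 336 CPM across the RFP libraries (0.89, SE 0.21, adjusted p = 0.0105) in a bin shifted up. Without Kir2.1 replicate 2 or 3 the number that fell was 7 and 6 and the number that rose was 2. The calls of SLC16A6 and SLC7A11 did not pass when low counts were not filtered.

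**Figure D3:**
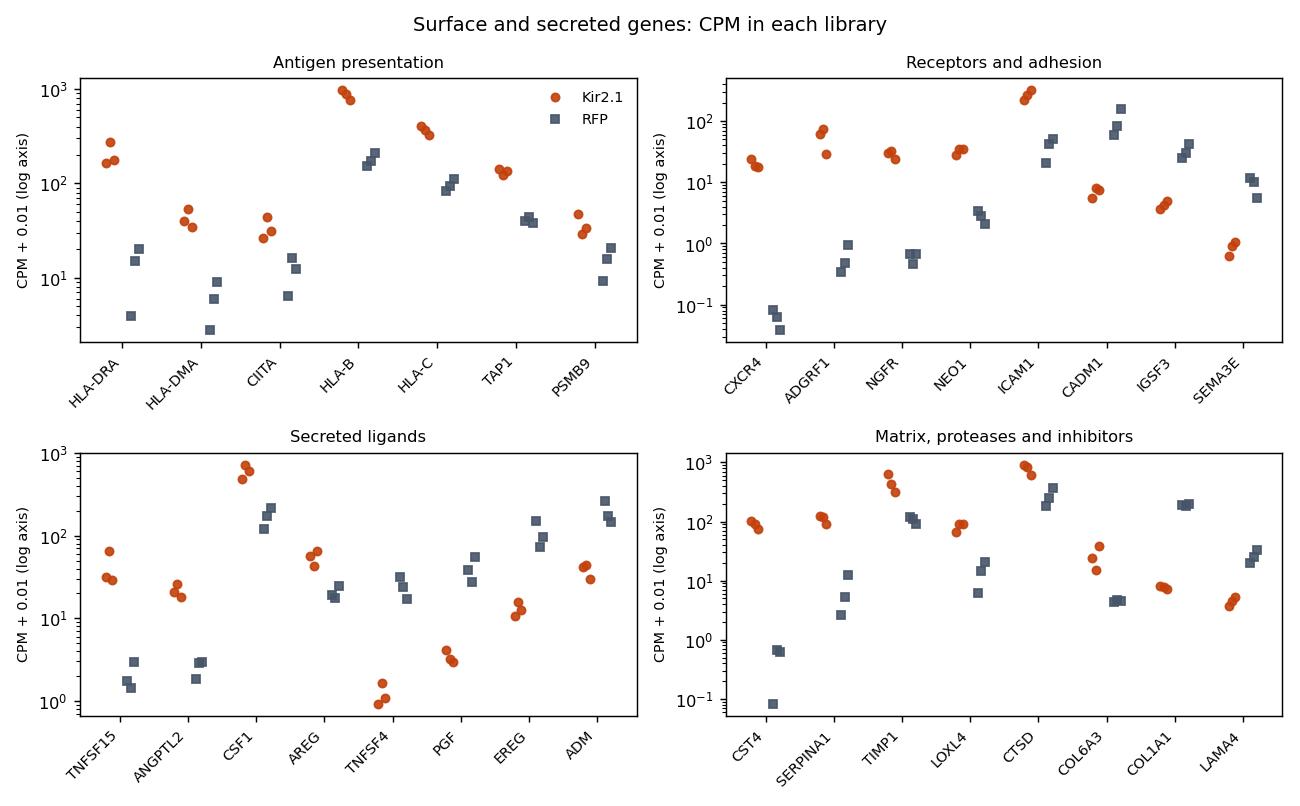
CPM in each library (vertical axis, log scale, with 0.01 added) for genes of antigen presentation, receptors and adhesion, secreted ligands, and matrix with its proteases and inhibitors (horizontal axis). Orange circles are the 3 Kir2.1 libraries and grey squares the 3 RFP libraries; for each gene drawn the groups do not overlap.

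Secreted growth factors changed in both directions, 8 of 45 higher and 13 lower (46.7% called against 20.5% of all genes, median -0.22). CSF1, the growth factor of macrophages (ENSG00000184371.14, chromosome 1, 109910242 to 109930992), had 483, 722 and 605 CPM across the Kir2.1 libraries, against 122, 171 and 215 CPM across the RFP libraries. AREG, a ligand of the EGF receptor, had 56, 42.9 and 65 CPM across the Kir2.1 libraries, against 19.3, 17.5 and 24.5 CPM across the RFP libraries. Both rose (log2 fold changes 1.83, SE 0.26, adjusted p = 0.000406, and 1.42, SE 0.32, adjusted p = 0.00815). EREG, another ligand of that receptor, had 10.6, 15.7 and 12.7 CPM across the Kir2.1 libraries, against 151, 73 and 97 CPM across the RFP libraries, and lay lower in every Kir2.1 library (-3.04, SE 0.35, adjusted p = 9.85e-05). PGF, placental growth factor, had 4.11, 3.16 and 2.93 CPM across the Kir2.1 libraries, against 38.4, 27.3 and 54.6 CPM across the RFP libraries. ADM, the vasodilator adrenomedullin, had 42.2, 44 and 30.2 CPM across the Kir2.1 libraries, against 261, 171 and 147 CPM across the RFP libraries. These also fell (log2 fold changes -3.56, SE 0.31, adjusted p = 9.84e-06, and -2.31, SE 0.26, adjusted p = 6.85e-05). ANGPTL2, an angiopoietin-like factor, averaged 21.6 ± 3.84 CPM in Kir2.1 cells and 2.54 ± 0.604 CPM in RFP cells and VEGFB, a VEGF family member, 74.6 ± 18.8 CPM in Kir2.1 cells and 27.6 ± 2.47 CPM in RFP cells, with log2 fold changes of 3.09 and 1.43. All 8 rises held, and the number that fell was 7 without Kir2.1 replicate 2.

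Among interleukins, chemokines and TNF family ligands 9 of 33 rose and 5 fell (42.4% called against 20.5% of all genes, median 0.49). TNFSF15, a ligand of the death receptor DR3, had 31.7, 65.5 and 29.4 CPM across the Kir2.1 libraries, against 1.74, 1.42 and 2.91 CPM across the RFP libraries, with Kir2.1 replicate 2 the highest. TNFSF10, which encodes TRAIL, had 28.2, 28.9 and 49.1 CPM across the Kir2.1 libraries, against 0.836, 1.86 and 5.32 CPM across the RFP libraries. TNFSF4, the ligand of OX40 (ENSG00000117586.11, chromosome 1, 173183734 to 173207313), had 0.905, 1.65 and 1.09 CPM across the Kir2.1 libraries, against 31.4, 23.9 and 17.1 CPM across the RFP libraries. Groups did not overlap for any of the 3, with log2 fold changes of 4.39, SE 0.37, adjusted p = 1.04e-05, then 3.74, SE 0.57, adjusted p = 0.00147, and -4.3, SE 0.42, adjusted p = 2.5e-05. For TNFSF10 the value was 4.71 without RFP replicate 3. IL18, a cytokine of the interleukin 1 family, averaged 13.7 ± 2.64 CPM in Kir2.1 cells and 36.7 ± 4.11 CPM in RFP cells and fell (-1.42, SE 0.30, adjusted p = 0.00514). IL11 had 32.7, 38.4 and 52.9 CPM across the Kir2.1 libraries, against 54.9, 102 and 199 CPM across the RFP libraries, in a bin shifted up. RFP replicate 3 was the highest of these, and the fall of -1.52 was -0.93 and not called without it, nor was it called without Kir2.1 replicate 1 or 2. The number that fell was 3 without RFP replicate 3 or Kir2.1 replicate 2 or 3, and 2 without Kir2.1 replicate 1.

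Of 56 genes of TGF-beta and BMP signalling 9 rose and 16 fell (44.6% called against 20.5% of all genes, median -0.04). The ligand TGFB1 had 90.9, 79.6 and 66.4 CPM across the Kir2.1 libraries, against 30.7, 27.3 and 26.6 CPM across the RFP libraries, in a bin shifted up, and the groups were apart (1.48, SE 0.18, adjusted p = 0.000125). INHBB, the beta subunit of activin B, had 3.78, 2.95 and 4.69 CPM across the Kir2.1 libraries, against 10.6, 18.9 and 19.9 CPM across the RFP libraries. FST, follistatin, which binds activin, had 29.2, 20.1 and 40.2 CPM across the Kir2.1 libraries, against 100.4, 64.1 and 61.9 CPM across the RFP libraries. Both fell (log2 fold changes -2.11, SE 0.29, adjusted p = 0.000338, and -1.34, SE 0.26, adjusted p = 0.00361). The BMP target gene ID1 averaged 42.9 ± 6.47 CPM in Kir2.1 cells and 99.3 ± 28.8 CPM in RFP cells. ID3, another, averaged 6.83 ± 3.52 CPM in Kir2.1 cells and 38.8 ± 27.6 CPM in RFP cells. Their log2 fold changes were -1.21 and -2.51, calls lost without Kir2.1 replicate 2 or 3, and that of ID3 was -1.75 without RFP replicate 1, where ID1 lost its call. TGFBI, an extracellular protein induced by TGF-beta, averaged 116 ± 21.9 CPM in Kir2.1 cells and 240.3 ± 65.6 CPM in RFP cells (-1.05, SE 0.29, adjusted p = 0.0214), not called without RFP replicate 1 or 3 or Kir2.1 replicate 1 or 2. The number that rose was 5, 4 and 5 without RFP replicate 2 or Kir2.1 replicate 2 or 3, the number that fell was 10 without Kir2.1 replicate 2, and 4 rises and 9 falls held. Of 51 Wnt and Notch genes 9 rose and 9 fell (35.3% called). The receptors FZD1 and FZD7 were higher by 1.28 and 1.2 and the factor LEF1 lower (log2 fold change -1.26). Without Kir2.1 replicate 1 or 2 the number that fell was 5.

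Matrix genes were called often and in both directions. Of 27 collagen chains 5 rose and 9 fell (51.9% called against 20.5% of all genes, median -0.66). COL1A1, the main chain of type I collagen (ENSG00000108821.14, chromosome 17, 50183289 to 50201632), had 8.08, 7.86 and 7.23 CPM across the Kir2.1 libraries, against 193, 184 and 195 CPM across the RFP libraries. Replicates of each group were close and far from those of the other (-4.63, SE 0.30, adjusted p = 1.12e-06). COL4A1, of basement membranes, had 26.6, 37.2 and 46 CPM across the Kir2.1 libraries, against 83.7, 83.7 and 86.6 CPM across the RFP libraries. COL7A1, of anchoring fibrils, averaged 64 ± 4.18 CPM in Kir2.1 cells and 164 ± 56.6 CPM in RFP cells. COL6A3, a chain of the microfibrillar type VI collagen, had 24.4, 15.1 and 38 CPM across the Kir2.1 libraries, against 4.35, 4.7 and 4.52 CPM across the RFP libraries. The falls of COL4A1 and COL7A1 and the rise of COL6A3 were -1.21, SE 0.20, adjusted p = 0.00138, then -1.35, SE 0.28, adjusted p = 0.00482, and 2.51, SE 0.30, adjusted p = 0.000135 on the log2 scale. Without Kir2.1 replicate 2 the number of chains that rose was 3. COL1A2, the partner chain of COL1A1 in type I collagen, had 1.2, 0.567 and 1.2 CPM across the Kir2.1 libraries, against 0.143, 0.0525 and 0.201 CPM across the RFP libraries and rose at low levels (2.88, SE 0.60, adjusted p = 0.00506). Of 5 tested fibroblast markers COL1A2 and LUM rose and COL1A1 fell, and their summed level of 12.21 to 14.34 CPM in the Kir2.1 and 188 to 201 CPM in the RFP libraries includes COL1A1. LUM lost its call without RFP replicate 1 or 2 or Kir2.1 replicate 3.

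Matrix glycoproteins and proteoglycans had 13 of 55 members higher and 13 lower (47.3% called against 20.5% of all genes, median -0.17). HSPG2, the basement membrane proteoglycan perlecan, had 52.5, 112 and 129 CPM across the Kir2.1 libraries, against 19, 35.3 and 13.8 CPM across the RFP libraries. LAMB3, a laminin chain of epithelial basement membranes, had 974, 1056 and 784 CPM across the Kir2.1 libraries, against 522, 523 and 386 CPM across the RFP libraries. Both stood higher in every Kir2.1 library. The laminin chain LAMA4 had 3.69, 4.54 and 5.27 CPM across the Kir2.1 libraries, against 19.8, 25.2 and 33.5 CPM across the RFP libraries. SRGN, serglycin of secretory granules, had 51.9, 46.1 and 64.1 CPM across the Kir2.1 libraries, against 296, 303 and 248 CPM across the RFP libraries. HSPG2 and LAMB3 rose (2.11 and 0.98, adjusted p = 0.00259 and 0.00447) and LAMA4 and SRGN fell (-2.54 and -2.38, adjusted p = 9.59e-05 and 4.8e-06). FBLN1, fibulin 1, averaged 3.97 ± 0.865 CPM in Kir2.1 cells and 19.2 ± 8.63 CPM in RFP cells (-2.28, SE 0.49, adjusted p = 0.00768). Without Kir2.1 replicate 1 the number that fell was 8.

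Proteases and their inhibitors had the largest shares of members called, 53.7% and 60%, among the lists with at least 20 tested. Of 54 matrix proteases 24 rose and 5 fell (median 0.72), and of 40 protease inhibitors 18 rose and 6 fell (median 0.73). CTSD, the lysosomal cathepsin D, had 917, 839 and 608 CPM across the Kir2.1 libraries, against 183, 247 and 366 CPM across the RFP libraries. LOXL4, a matrix crosslinking oxidase listed with the proteases, had 67, 92 and 89.4 CPM across the Kir2.1 libraries, against 6.25, 14.4 and 20.3 CPM across the RFP libraries. ADAMTS15, an aggrecanase, had 87.6, 93.9 and 72.4 CPM across the Kir2.1 libraries, against 7.42, 19.96 and 25 CPM across the RFP libraries. The groups did not overlap for any of them (log2 fold changes 1.57, SE 0.27, adjusted p = 0.00169, then 2.6, SE 0.41, adjusted p = 0.00155, and 2.28, SE 0.37, adjusted p = 0.00134). On the inhibitor side the cystatin CST4 had 101, 92.4 and 75.1 CPM across the Kir2.1 libraries, against 0.0716, 0.656 and 0.604 CPM across the RFP libraries. CST3, cystatin C, had 586, 494 and 399 CPM across the Kir2.1 libraries, against 116, 122 and 114 CPM across the RFP libraries. Every Kir2.1 library was above every RFP library for these. SERPINA1, alpha-1 antitrypsin, had 124, 121 and 91.2 CPM across the Kir2.1 libraries, against 2.6, 5.3 and 12.5 CPM across the RFP libraries. TIMP1, a metalloprotease inhibitor in a bin of chromosome X shifted up, had 628, 425 and 318 CPM across the Kir2.1 libraries, against 121, 109 and 91.4 CPM across the RFP libraries. These 4 rose by 7.68, 2.07, 4.05 and 2.09 on the log2 scale, the third of them by 4.82 without RFP replicate 3. CSTA, a cystatin of the cytosol, had no counts in Kir2.1 and 1.81, 2.36 and 2.1 CPM in the RFP libraries. It was at least 72.06-fold lower, and at least 46.37-fold and 47.18-fold lower without Kir2.1 replicate 2 and 3. SERPINB5, maspin, had 0.84, 0.216 and 0.251 CPM across the Kir2.1 libraries, against 15.9, 9.14 and 3.22 CPM across the RFP libraries, a log2 fold change of -4.46, of -3.85 without RFP replicate 1 and of -5.31 without Kir2.1 replicate 1. Cystatins have close paralogs, among which reads could be divided. Of the proteases that fell, 3 were called without RFP replicate 2 or Kir2.1 replicate 1 or 3. Of the inhibitors that fell, 3 were called without RFP replicate 3 or Kir2.1 replicate 1, and 2 without Kir2.1 replicate 3. Outside shifted bins 21 of 46 proteases and 17 of 39 inhibitors rose.

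**Figure D4:**
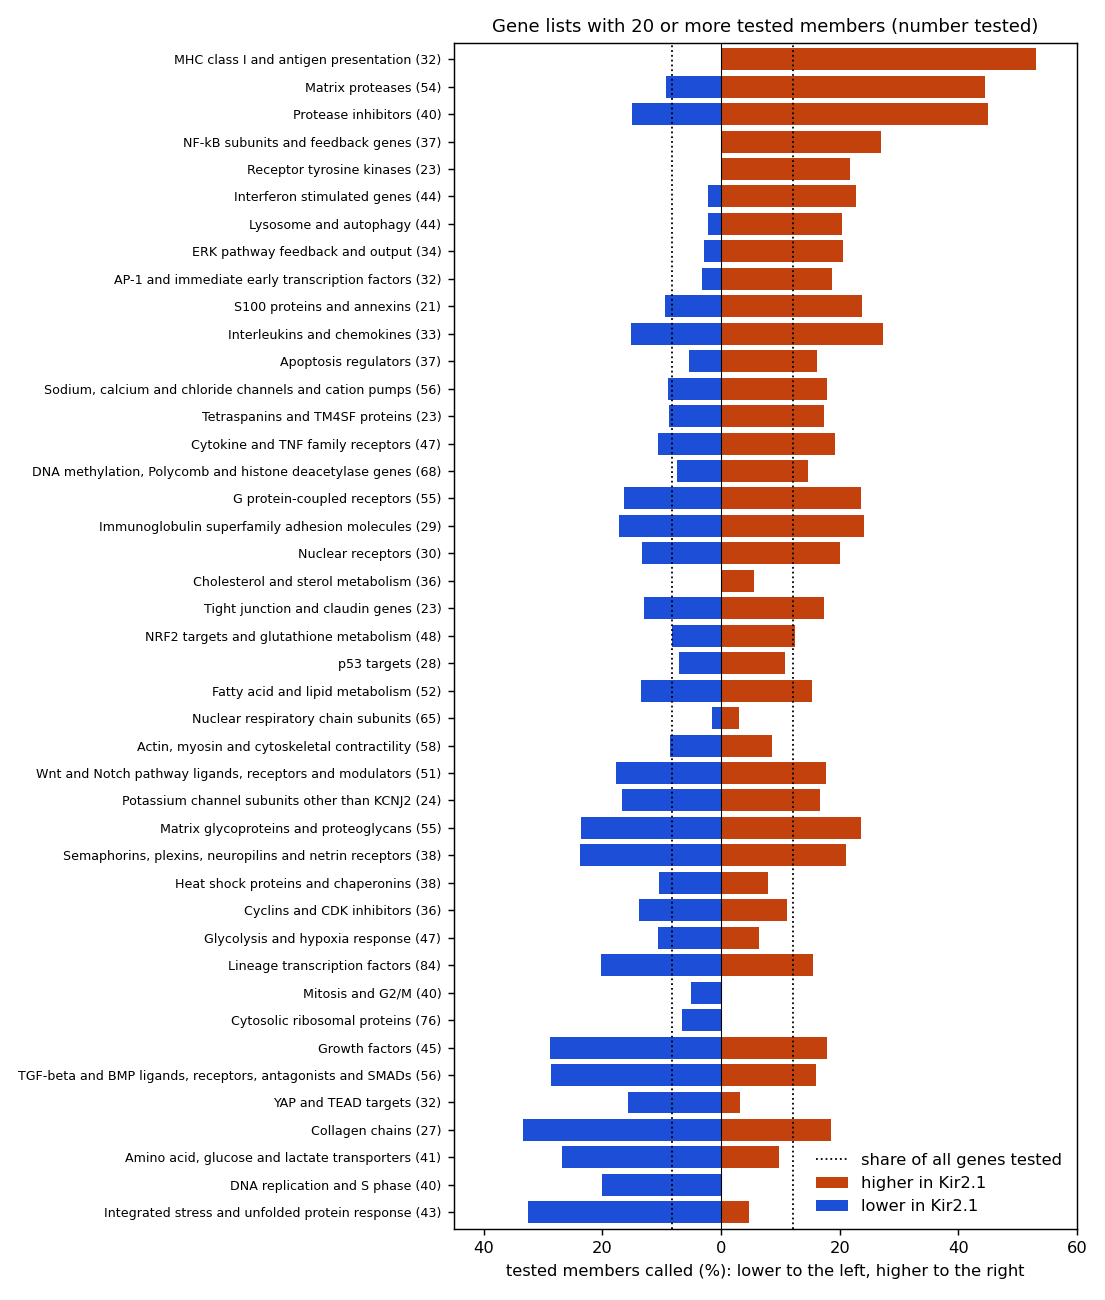
Share of tested members (%) of each gene list with at least 20 tested that rose (orange, to the right) or fell (blue, to the left) in Kir2.1 against RFP cells, with the number tested in parentheses. Dotted lines mark 12.2% higher and 8.26% lower among all tested genes; antigen presentation (17 of 32 higher, none lower) stands at the top and the integrated stress and unfolded protein response (2 higher, 14 lower of 43) at the bottom.

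Transcription factors that set cell identity had members that rose and members that fell. Of 84 lineage factors 13 rose and 17 fell (35.7% called against 20.5% of all genes, median -0.11), and 12 and 9 held. EHF, an ETS factor of epithelial cells (ENSG00000135373.13, chromosome 11, 34621093 to 34661057), had 152, 256 and 202 CPM across the Kir2.1 libraries, against 0.43, 0.867 and 3.48 CPM across the RFP libraries. SPDEF, another epithelial ETS factor, had 61.9, 60.8 and 45.7 CPM across the Kir2.1 libraries, against 1.05, 3.55 and 6.96 CPM across the RFP libraries, in a bin shifted up. Both were higher in every Kir2.1 library (log2 fold changes 7.02, SE 0.72, adjusted p = 0.000204, and 3.87, SE 0.56, adjusted p = 0.00121), and without RFP replicate 3 the values were 8.29 and 4.61. FOXQ1, a forkhead factor, averaged 37.4 ± 6.34 CPM in Kir2.1 cells and 7.71 ± 2.1 CPM in RFP cells (2.28, SE 0.23, adjusted p = 4.01e-05), and SOX12 averaged 31.9 ± 2.52 CPM in Kir2.1 cells and 6.28 ± 1.41 CPM in RFP cells (2.34, SE 0.27, adjusted p = 8.65e-05). HMGA1, a chromatin protein of cancer and embryonic cells, had 2445, 2174 and 2122 CPM across the Kir2.1 libraries, against 897, 1012 and 715 CPM across the RFP libraries (1.36, SE 0.20, adjusted p = 0.000631), and also lies in a bin shifted up. TFAP2C had 21.3, 20 and 12.1 CPM across the Kir2.1 libraries, against 39.3, 35.4 and 83 CPM across the RFP libraries and fell (-1.56, SE 0.33, adjusted p = 0.00579). Without Kir2.1 replicate 3 the number of lineage factors that fell was 11.

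Of the 14 tested HOX genes 3 fell and none rose (21.4% called against 20.5% of all genes, median -0.59). The 3 that fell lie in the HOXB cluster on chromosome 17. HOXB5 had 0.194, 0.162 and 0.14 CPM across the Kir2.1 libraries, against 1.91, 2.05 and 2.24 CPM across the RFP libraries. HOXB6 had 0.259, 0.324 and 0.195 CPM across the Kir2.1 libraries, against 3.56, 3.36 and 2.91 CPM across the RFP libraries, with no overlap between groups (log2 fold changes -3.63, SE 0.52, adjusted p = 0.000505, and -3.64, SE 0.52, adjusted p = 0.000476). HOXB3 averaged 3.39 ± 0.962 CPM in Kir2.1 cells and 10.2 ± 1.83 CPM in RFP cells, and it was not called without RFP replicate 2 or 3 or any Kir2.1 library. Among 30 nuclear receptors 6 rose and 4 fell (33.3% called), of which 2 and 2 held. RARB, the retinoic acid receptor beta, had 1.49, 3 and 2.68 CPM in the Kir2.1 libraries and 1 count in the RFP group, in replicate 1. By counts it was 279.7 times higher (95% interval 49.75 to 11090) and at least 59.19-fold higher without RFP replicate 1. VDR, the vitamin D receptor on chromosome 12, had 24.4, 18.1 and 12.1 CPM across the Kir2.1 libraries, against 66.6, 40.9 and 54 CPM across the RFP libraries, in a bin shifted down (-1.57, SE 0.31, adjusted p = 0.00407). Without Kir2.1 replicate 3 the number of nuclear receptors that rose was 3, and without Kir2.1 replicate 2 the number that fell was 2.

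Factors and splicing regulators of the epithelial to mesenchymal transition also divided, 4 of 17 higher and 4 lower (47.1% called, median -0.31). ESRP2, a splicing regulator of epithelial cells, had 4.72, 3.84 and 4.13 CPM across the Kir2.1 libraries, against 0.454, 0.473 and 0.403 CPM across the RFP libraries. Its paralog ESRP1 had 0.0646, 0.054 and 0.14 CPM across the Kir2.1 libraries, against 0.334, 0.972 and 0.892 CPM across the RFP libraries. ESRP2 rose (3.24, SE 0.30, adjusted p = 1.64e-05) and ESRP1 fell (-3.02, SE 0.63, adjusted p = 0.00542). PRRX1, a homeobox factor of mesenchymal cells, had 0.84, 0.486 and 1.17 CPM across the Kir2.1 libraries, against 4.44, 4.31 and 5.58 CPM across the RFP libraries and fell (-2.52, SE 0.35, adjusted p = 0.000386). SNAI1, a repressor of epithelial genes, had 0.42, 0.378 and 1.17 CPM across the Kir2.1 libraries, against 5.16, 2.05 and 1.93 CPM across the RFP libraries. Its log2 fold change of -2.2 was -1.59 without RFP replicate 1 and -2.92 without Kir2.1 replicate 3, and it was not called without RFP replicate 1 or Kir2.1 replicate 1 or 2. The number of members that fell was 2 without any of those 3 libraries. Of 68 genes of DNA methylation, Polycomb and histone deacetylation 10 rose and 5 fell, 22.1% called against 20.5% of all genes. DNMT3A, a DNA methyltransferase that acts on unmethylated DNA, had 4.43, 5.11 and 5.5 CPM across the Kir2.1 libraries, against 12.4, 13.1 and 11.8 CPM across the RFP libraries and fell (-1.31, SE 0.23, adjusted p = 0.00162). HDAC6, a cytoplasmic deacetylase on chromosome X, had 61, 73.9 and 84.9 CPM across the Kir2.1 libraries, against 23.2, 34.5 and 32.7 CPM across the RFP libraries in a bin shifted up (1.28, SE 0.20, adjusted p = 0.000911). In that list 3 rises and 3 falls held, the number that rose was 5, 3 and 6 without RFP replicate 1, 2 or 3 and 5, 4 and 5 without Kir2.1 replicate 1, 2 or 3, and the number that fell was 3 without RFP replicate 1 or 2 or Kir2.1 replicate 1 or 3.

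Of 44 tested interferon stimulated genes 10 rose and 1 fell (25.0% called against 20.5% of all genes, median 0.29). Of the 10 rises 6 held. The promoters of 4 members that rose are given because they hold letters that match the core of the element bound by interferon regulatory factors. The sequences are from RefSeq on GRCh38.p14, 250 bases before and 50 after the start of transcription, 5′ to 3′ on the strand of the gene, with matches to GAAA followed by any 2 bases and GAAA in capitals (both strands searched, overlapping matches allowed).
IFI27 (chr14:94110486-94110785, plus strand): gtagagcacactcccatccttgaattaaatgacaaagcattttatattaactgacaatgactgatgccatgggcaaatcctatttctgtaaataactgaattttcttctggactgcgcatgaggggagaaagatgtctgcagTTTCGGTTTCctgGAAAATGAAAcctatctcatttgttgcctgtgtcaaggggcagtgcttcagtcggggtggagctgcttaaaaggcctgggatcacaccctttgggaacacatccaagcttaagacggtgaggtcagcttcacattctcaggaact
IFITM1 (chr11:313790-314089, plus strand): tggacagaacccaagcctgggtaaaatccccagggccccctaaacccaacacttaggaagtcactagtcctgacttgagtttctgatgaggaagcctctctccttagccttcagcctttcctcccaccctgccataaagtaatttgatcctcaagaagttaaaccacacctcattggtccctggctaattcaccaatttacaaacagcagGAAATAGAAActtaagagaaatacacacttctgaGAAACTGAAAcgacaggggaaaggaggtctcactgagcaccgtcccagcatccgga
BST2 (chr19:17405581-17405880, minus strand): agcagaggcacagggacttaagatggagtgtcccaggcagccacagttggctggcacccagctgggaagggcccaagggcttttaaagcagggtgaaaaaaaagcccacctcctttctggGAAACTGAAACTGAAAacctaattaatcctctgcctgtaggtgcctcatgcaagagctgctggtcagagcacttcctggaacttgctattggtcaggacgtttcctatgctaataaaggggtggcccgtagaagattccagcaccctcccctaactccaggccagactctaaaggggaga
ISG15 (chr1:1013247-1013546, plus strand): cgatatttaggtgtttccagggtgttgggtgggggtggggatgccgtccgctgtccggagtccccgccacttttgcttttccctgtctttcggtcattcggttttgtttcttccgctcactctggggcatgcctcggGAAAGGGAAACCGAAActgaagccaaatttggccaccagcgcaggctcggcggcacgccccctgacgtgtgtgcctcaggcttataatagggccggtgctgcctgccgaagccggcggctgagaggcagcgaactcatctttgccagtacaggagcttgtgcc
The motif lies in 3.57% of 35116 promoters of this length. Of the 34 list members with an entry 23 have it, among them 5 of 8 that rose and 17 of 25 that did not pass. A match is a description of the letters and not a shown site of binding.

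Of the genes shown, IFI27, a mitochondrial and nuclear envelope protein (ENSG00000165949.12, chromosome 14, 94104836 to 94116698), had 53.2, 42.8 and 43.4 CPM across the Kir2.1 libraries, against 1, 0.709 and 1.09 CPM across the RFP libraries. IFITM1, which blocks viral entry, had 9.57, 8.51 and 8.76 CPM across the Kir2.1 libraries, against 1.1, 1.34 and 2.01 CPM across the RFP libraries. Both stood apart between groups (log2 fold changes 5.63, SE 0.26, adjusted p = 6.82e-08, and 2.59, SE 0.28, adjusted p = 5.43e-05). BST2, tetherin, had 145, 104 and 85.1 CPM across the Kir2.1 libraries, against 4.03, 5.07 and 12.9 CPM across the RFP libraries. ISG15, a ubiquitin-like modifier in a bin shifted up, had 138, 98.1 and 68.7 CPM across the Kir2.1 libraries, against 46.6, 47.7 and 40.6 CPM across the RFP libraries. The groups did not overlap for either. They rose by 3.93 and 1.18 on the log2 scale, the first of them by 4.61 without RFP replicate 3. Without RFP replicate 2 the number of members that rose was 6, and 0 fell without RFP replicate 3 or any Kir2.1 library. The member that fell, EPSTI1, averaged 1.42 ± 0.379 CPM in Kir2.1 cells and 5.32 ± 4.49 CPM in RFP cells, with a log2 fold change of -1.9 and of -0.96 without RFP replicate 3.

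Of 37 tested NF-kB subunits and feedback genes 10 rose and none fell (27.0% called against 20.5% of all genes, median 0.45). Of these rises 6 held. RELB, the subunit of the noncanonical branch, had 55.4, 42.1 and 50.6 CPM across the Kir2.1 libraries, against 20.1, 23.6 and 19.4 CPM across the RFP libraries. BCL3, a nuclear cofactor of NF-kB, had 24.5, 22.7 and 25.8 CPM across the Kir2.1 libraries, against 3.27, 8.64 and 12.1 CPM across the RFP libraries. Kir2.1 libraries were all above the RFP libraries for both (log2 fold changes 1.23, SE 0.21, adjusted p = 0.00169, and 1.6, SE 0.36, adjusted p = 0.00874). NFKBIE, an inhibitor of the pathway, averaged 73.2 ± 16.3 CPM in Kir2.1 cells and 34.8 ± 4.73 CPM in RFP cells (1.07, SE 0.22, adjusted p = 0.00506). TRAF1, an adaptor of TNF receptors, had 78.5, 76.2 and 92.8 CPM across the Kir2.1 libraries, against 26.2, 35.2 and 20.3 CPM across the RFP libraries, and its call (1.6, SE 0.41, adjusted p = 0.0208) did not pass without RFP replicate 1 or 3 or Kir2.1 replicate 2 or 3. Of the 29 members outside shifted bins 5 rose, 17.2%, against 10.4% of all genes outside such bins, and RELB, BCL3 and NFKBIE lie in bins shifted up. Without RFP replicate 1 a member was called lower.

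Feedback genes of the ERK pathway had 7 of 34 members higher and 1 lower, and AP-1 and other immediate early factors 6 of 32 higher and 1 lower. These are 23.5% and 21.9% called, against 20.5% of all genes, and 17.9% and 19.2% outside shifted bins, against 17.8%. SPRY2, an inhibitor of receptor tyrosine kinase signalling, had 106, 135 and 123 CPM across the Kir2.1 libraries, against 52.6, 53.4 and 47.1 CPM across the RFP libraries. IER3, an early response gene in a bin shifted up, had 1227, 1310.2 and 1101 CPM across the Kir2.1 libraries, against 391, 468 and 553 CPM across the RFP libraries. The groups did not overlap for either (log2 fold changes 1.25, SE 0.19, adjusted p = 0.000629, and 1.37, SE 0.20, adjusted p = 0.000568). In the ERK list the number that rose was 4 without RFP replicate 2 and 3 without Kir2.1 replicate 2, and the number that fell was 2 and 3 without RFP replicate 1 and 3. In the AP-1 list the number that rose was 3 without RFP replicate 3 or Kir2.1 replicate 2, and none fell without Kir2.1 replicate 1. Of 32 targets of YAP and TEAD 1 rose and 5 fell (18.8% called, median -0.35), and none of these calls held. ANKRD1, a YAP target, had 436, 442 and 607 CPM across the Kir2.1 libraries, against 1076, 725 and 671 CPM across the RFP libraries (-0.74, SE 0.23, adjusted p = 0.0375), not called without RFP replicate 1 or 2 or Kir2.1 replicate 1 or 2. The number of YAP targets that fell was 1 without RFP replicate 1, 0 without RFP replicate 2 or Kir2.1 replicate 1 or 2 and 2 without Kir2.1 replicate 3, and the number that rose was 2 without RFP replicate 1 and 0 without each of the other 5 libraries.

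Of the cell cycle lists, those of replication and mitosis had no member that rose in the fit over 8 libraries. Of 40 mitosis genes 2 fell and none rose (5.0% called against 20.5% of all genes, median -0.36). The summed level of the 40 was 7994 to 8813 CPM in the Kir2.1 and 9349 to 10940 CPM in the RFP libraries. The 2 that fell were MAD2L1 and PRC1, and these were named after their values were seen. MAD2L1, of the spindle checkpoint, averaged 109 ± 22 CPM in Kir2.1 cells and 177 ± 45.8 CPM in RFP cells, with overlapping groups (-0.70, SE 0.23, adjusted p = 0.049). PRC1, a spindle midzone protein in a bin shifted down, averaged 8.73 ± 1.35 CPM in Kir2.1 cells and 19.2 ± 1.66 CPM in RFP cells (-1.14, SE 0.37, adjusted p = 0.0448). Of 40 replication genes 8 fell and none rose (median -0.30). CDC6, a loader of the replicative helicase, had 159, 156 and 174 CPM across the Kir2.1 libraries, against 281, 268 and 296 CPM across the RFP libraries (-0.79, SE 0.18, adjusted p = 0.00796). It was the replication gene whose call held, and the number that fell was 5 without RFP replicate 1 or 3, 2 without RFP replicate 2 or Kir2.1 replicate 1, 1 without Kir2.1 replicate 2 and 3 without Kir2.1 replicate 3. Of the mitosis genes none was called without RFP replicate 2 or 3 or Kir2.1 replicate 1 or 2, and 1 without Kir2.1 replicate 3. With no filter on low counts 6 mitosis genes fell, and in the fit of the Kir2.1 and RFP libraries alone 7 fell and 1 rose. Among cyclins, kinases and their inhibitors 4 of 36 rose and 5 fell, 25.0% called against 20.5% of all genes. The inhibitor CDKN1A, p21, on chromosome 6, had 190.2, 173 and 152 CPM across the Kir2.1 libraries, against 80.2, 68.7 and 83.1 CPM across the RFP libraries. CDKN1B, p27, on chromosome 12, had 24.7, 30.6 and 33.1 CPM across the Kir2.1 libraries, against 47.7, 65.2 and 69.5 CPM across the RFP libraries. CDK2, also on chromosome 12, had 94.4, 92.3 and 100.3 CPM across the Kir2.1 libraries, against 192, 189 and 176 CPM across the RFP libraries. CDKN1A rose and the other 2 fell (log2 fold changes 1.15, SE 0.19, adjusted p = 0.00141, then -1.05, SE 0.20, adjusted p = 0.00326, and -0.96, SE 0.16, adjusted p = 0.00146). All 3 lie in shifted bins. Outside such bins 2 of 27 rose and 1 fell, and the number that fell in the whole list was 3 without RFP replicate 2 or Kir2.1 replicate 2 or 3.

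Of 43 genes of the integrated stress and unfolded protein response 14 fell and 2 rose (median -0.21), against 8.26% and 12.2% of all genes. PHGDH, the first enzyme of serine synthesis (ENSG00000092621.13, chromosome 1, 119648411 to 119744226), had 7.34, 4.24 and 6.45 CPM across the Kir2.1 libraries, against 97, 119 and 75.5 CPM across the RFP libraries. PSAT1, the second enzyme, had 99, 87.5 and 118 CPM across the Kir2.1 libraries, against 246, 267 and 234 CPM across the RFP libraries. Every Kir2.1 library was below every RFP library for both (log2 fold changes -4.01, SE 0.26, adjusted p = 8.86e-07, and -1.3, SE 0.20, adjusted p = 0.000726). SHMT2, which passes a carbon from serine to folate in mitochondria and lies in a bin of chromosome 12 shifted down, had 246, 216 and 248 CPM across the Kir2.1 libraries, against 583, 611 and 434 CPM across the RFP libraries. MTHFD2, the next enzyme of that pathway, averaged 55.6 ± 10.8 CPM in Kir2.1 cells and 106 ± 12.2 CPM in RFP cells (-1.2, SE 0.20, adjusted p = 0.00147, and -0.93, SE 0.19, adjusted p = 0.00405). ATF4, the transcription factor that drives this program, had 182, 139 and 204 CPM across the Kir2.1 libraries, against 361, 426 and 365 CPM across the RFP libraries (-1.14, SE 0.21, adjusted p = 0.00218). Both ATF4 and the enzymes named above stood lower in every Kir2.1 library. PSPH, the last enzyme of serine synthesis, averaged 35.4 ± 2.31 CPM in Kir2.1 cells and 31.2 ± 3.96 CPM in RFP cells and did not pass (0.18, SE 0.18, adjusted p = 0.501). NUPR1, a stress-induced chromatin factor, averaged 2.62 ± 0.445 CPM in Kir2.1 cells and 19.8 ± 4.27 CPM in RFP cells (-2.91, SE 0.24, adjusted p = 7.14e-06).

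Some well-known members of the list did not pass. TRIB3, a pseudokinase induced by ATF4, averaged 44.6 ± 12.2 CPM in Kir2.1 cells and 34 ± 7.16 CPM in RFP cells (0.39, SE 0.25, adjusted p = 0.298). For the chaperone HSPA5 the values were 680, 705 and 1106 CPM across the Kir2.1 libraries, against 695, 638 and 618 CPM across the RFP libraries, with Kir2.1 replicate 3 above the rest (0.35, SE 0.32, adjusted p = 0.464). XBP1, a factor of the unfolded protein response, averaged 70.4 ± 10.1 CPM in Kir2.1 cells and 69.7 ± 7.8 CPM in RFP cells (0.01, SE 0.17, adjusted p = 0.963). In this list the number that fell was 9 without RFP replicate 2 or Kir2.1 replicate 3 and 7 without Kir2.1 replicate 2, and 7 falls held. The number that rose was 1 without RFP replicate 1 or Kir2.1 replicate 3 and 0 without RFP replicate 2 or Kir2.1 replicate 1 or 2. Outside shifted bins 12 of 39 members fell and 2 rose.

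Apoptosis regulators had 6 of 37 members higher and 2 lower, and p53 targets 3 of 28 higher and 2 lower. These are 21.6% and 17.9% called, against 20.5% of all genes. CASP1, the protease that matures interleukin 1 beta, had 2.91, 2.4 and 1.84 CPM across the Kir2.1 libraries, against 7.45, 5.62 and 12.3 CPM across the RFP libraries. CASP9, the initiator caspase of the mitochondrial path, had 15.3, 15.3 and 15.5 CPM across the Kir2.1 libraries, against 6.16, 7.67 and 6.71 CPM across the RFP libraries. CASP1 fell and CASP9 rose (log2 fold changes -1.83, SE 0.32, adjusted p = 0.00168, and 1.17, SE 0.21, adjusted p = 0.00198). Of 38 heat shock proteins and chaperonins 3 rose and 4 fell (18.4% called, median -0.30), and none of these calls held. HSP90AA1, an abundant cytosolic chaperone, had 2040.5, 1825 and 2066 CPM across the Kir2.1 libraries, against 3262, 3777 and 3522 CPM across the RFP libraries. Its fall (-0.83, SE 0.22, adjusted p = 0.0174) did not pass without RFP replicate 2 or any Kir2.1 library. The number of chaperones that fell was 0 without RFP replicate 2 or Kir2.1 replicate 2 or 3, 2 without RFP replicate 3 and 1 without Kir2.1 replicate 1. The number that rose was 0 without RFP replicate 2 or Kir2.1 replicate 1 or 2 and 1 without RFP replicate 3 or Kir2.1 replicate 3. In the glycolysis and hypoxia list 3 of 47 rose and 5 fell (17% called). PDK3, a kinase that closes the entry of pyruvate into the citric acid cycle, had 21.9, 21.2 and 22.6 CPM across the Kir2.1 libraries, against 6.64, 7.88 and 13.4 CPM across the RFP libraries (1.24, SE 0.26, adjusted p = 0.00545). LDHB, a lactate dehydrogenase subunit in a bin of chromosome 12 shifted down, had 70.05, 43.9 and 47.2 CPM across the Kir2.1 libraries, against 102, 87.2 and 90.9 CPM across the RFP libraries (-0.80, SE 0.20, adjusted p = 0.0146), not called without Kir2.1 replicate 2 or 3. The number of those genes that fell was 2 without RFP replicate 2 or Kir2.1 replicate 2 and 1 without Kir2.1 replicate 3.

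**Figure D5:**
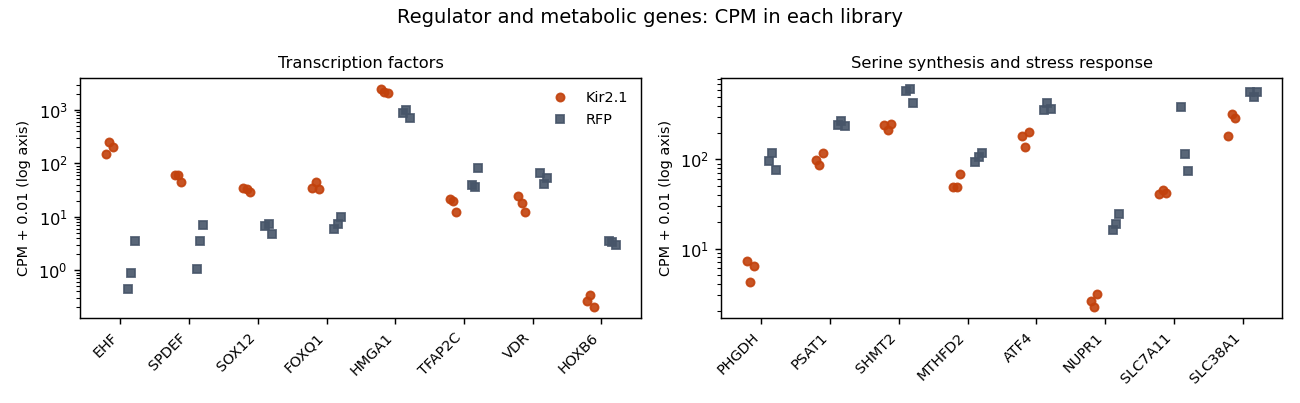
CPM in each library (vertical axis, log scale, with 0.01 added) for transcription factors and for genes of serine synthesis, stress response and amino acid transport (horizontal axis). Orange circles are the 3 Kir2.1 libraries and grey squares the 3 RFP libraries; the groups do not overlap for any gene drawn, and RFP replicate 1 stands apart for SLC7A11.

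Lists of respiration, sterols and ribosomes had 4.62% to 6.58% of members called, against 20.5% of all genes, and for sterols and ribosomes the counts changed with the filter on low counts. Of 65 nuclear subunits of the respiratory chain 2 rose and 1 fell (4.62%), of 36 cholesterol genes 2 rose and none fell (5.56%), and of 76 cytosolic ribosomal proteins 5 fell and none rose (6.58%, median -0.32). With no filter 17 ribosomal proteins fell and none rose, and 6 cholesterol genes rose and 2 fell, where 4147 of 32593 genes were called. The number of ribosomal proteins that fell was 16 in the fit of the Kir2.1 and RFP libraries alone and 11 with DESeq2 or the replicate block. It was 12 without Kir2.1 replicate 1, 3 without RFP replicate 2 and 2 without Kir2.1 replicate 2 or 3. For cholesterol genes the number that rose was 4 without RFP replicate 3 and 1 without RFP replicate 1 or 2 or Kir2.1 replicate 1 or 2, and 1 fell without Kir2.1 replicate 3. For the respiratory chain the number that rose was 1 without RFP replicate 2 or 3 or Kir2.1 replicate 1, and the number that fell was 3 without Kir2.1 replicate 1 and 0 without RFP replicate 2 or Kir2.1 replicate 2 or 3. Lipid genes had 8 of 52 members higher and 7 lower (28.8% called against 20.5% of all genes). ALOX5, which begins the synthesis of leukotrienes, had 3.94, 5.46 and 2.85 CPM in the Kir2.1 libraries and no counts in the RFP libraries. It was at least 157-fold higher, and at least 99.66-fold higher without RFP replicate 1. LPL, lipoprotein lipase, had 0.711, 0.486 and 1.09 CPM across the Kir2.1 libraries, against 6.66, 9.19 and 14 CPM across the RFP libraries. PLA2G4A, which releases arachidonic acid, had 3.17, 5.19 and 4.13 CPM across the Kir2.1 libraries, against 14.6, 14.3 and 21.9 CPM across the RFP libraries. Both fell (log2 fold changes -3.7, SE 0.41, adjusted p = 6.81e-05, and -2.02, SE 0.28, adjusted p = 0.000374). The number of lipid genes that rose was 4, 5 and 4 without RFP replicate 1, RFP replicate 2 or Kir2.1 replicate 2. Among 48 genes of the NRF2 response and glutathione 6 rose and 4 fell, 20.8% called against 20.5% of all genes. GSTP1, a glutathione transferase, had 293, 189 and 193 CPM across the Kir2.1 libraries, against 113, 95.1 and 71.5 CPM across the RFP libraries (1.27, SE 0.23, adjusted p = 0.00195), and AKR1C3, an aldo-keto reductase, averaged 64.8 ± 19.9 CPM in Kir2.1 cells and 19.2 ± 2.3 CPM in RFP cells (1.76, SE 0.23, adjusted p = 0.000273). None of the falls in that list held, and the number was 1 without Kir2.1 replicate 1 and 0 without Kir2.1 replicate 2 or 3.

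The cytoskeleton and the lysosome had 17.2% of 58 and 22.7% of 44 members called, against 20.5% of all genes. GSN, the actin-severing protein gelsolin, had 142, 145 and 111 CPM across the Kir2.1 libraries, against 24.7, 32.9 and 42.4 CPM across the RFP libraries. MYH10, nonmuscle myosin IIB, had 79.2, 108 and 106 CPM across the Kir2.1 libraries, against 32.3, 35.9 and 19.1 CPM across the RFP libraries. MSN, moesin, which ties actin to the membrane, had 1094, 1182 and 1295 CPM across the Kir2.1 libraries, against 706, 579 and 445 CPM across the RFP libraries. All 3 rose with no overlap (log2 fold changes 1.99, SE 0.30, adjusted p = 0.000653, then 1.75, SE 0.24, adjusted p = 0.000351, and 1.05, SE 0.21, adjusted p = 0.0039). TAGLN, transgelin, averaged 3.45 ± 1.41 CPM in Kir2.1 cells and 13.2 ± 10.6 CPM in RFP cells, and its fall of -1.94 was -1.05 and not called without RFP replicate 1, nor was it called without Kir2.1 replicate 2 or 3. The number of cytoskeletal genes that fell was 2 without RFP replicate 1 or Kir2.1 replicate 2, 3 without Kir2.1 replicate 1 and 1 without Kir2.1 replicate 3. In the lysosome and autophagy list 9 rose and 1 fell. NEU1, a sialidase, averaged 200.3 ± 40.5 CPM in Kir2.1 cells and 83 ± 16.3 CPM in RFP cells (log2 fold change 1.27). TFEB, a factor that drives lysosomal genes, averaged 5.58 ± 0.763 CPM in Kir2.1 cells and 1.13 ± 0.199 CPM in RFP cells (log2 fold change 2.31). Both lie on chromosome 6 in bins shifted up. Outside shifted bins 4 of 35 rose, and the fall was lost without any 1 of the 6 libraries.

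Epithelial and cancer-testis genes had members that rose and members that fell. Of 16 luminal and simple epithelial markers 5 rose and 3 fell (50.0% called against 20.5% of all genes). Their summed levels were 1169 to 1481 CPM in the Kir2.1 and 1111 to 1784 CPM in the RFP libraries. Outside shifted bins 5 of 13 rose and 1 fell. CLDN4, AGR2, MUC1 and CLDN7 rose (6.97, 3.47, 2.56 and 2.19). AGR2 was not called without RFP replicate 1 or 2 or Kir2.1 replicate 2 or 3. KRT19, a keratin of simple epithelia, had 358, 298 and 393 CPM across the Kir2.1 libraries, against 70.7, 84.3 and 56.3 CPM across the RFP libraries. KRT7, another, in a bin of chromosome 12 shifted down, had 251, 173 and 243 CPM across the Kir2.1 libraries, against 647, 509 and 449.8 CPM across the RFP libraries. KRT19 rose and KRT7 fell (log2 fold changes 2.31, SE 0.20, adjusted p = 1.13e-05, and -1.27, SE 0.21, adjusted p = 0.00127). Of 8 tested markers of basal epithelium that the MDA-MB-468 line expresses 3 rose and 2 fell (62.5% called). Their summed levels were 406.8 to 543.3 CPM in the Kir2.1 and 706.2 to 972.8 CPM in the RFP libraries. None of those rises held, with 1 called without RFP replicate 2 or 3 or Kir2.1 replicate 1 and 0 without Kir2.1 replicate 2, and 1 fall was called without RFP replicate 3 or Kir2.1 replicate 1 or 3. Of 65 listed cancer-testis antigens, genes otherwise limited to germ cells, 13 had enough counts to test. Of these 7 rose and 3 fell (76.9% called, against 20.5% of all genes, median 3.1), and 6 and 3 held. The share covers tested members only. The filter keeps a gene with enough counts in 1 group. Members near silent in Kir2.1 or RFP cells, such as MAGEB2 and MAGEC1, could thus be tested only through a group where they were high. A large share called and a large median follow in part from that filter and cannot be read as a result about this family. The 7 that rose lie on chromosome X, where 29.5% of all tested genes rose. MAGEB2, also on chromosome X, fell (log2 fold change -11.79). MAGEC1 had 8.53, 6.35 and 8.62 CPM across the Kir2.1 libraries, against 0.0477, 0.0525 and 0.115 CPM across the RFP libraries. SPANXB1, of a family with near-identical copies, had 98, 68 and 80.2 CPM across the Kir2.1 libraries, against 16.8, 6.17 and 5.67 CPM across the RFP libraries. Their groups were apart (log2 fold changes 6.74, SE 0.35, adjusted p = 1.58e-07, and 3.1, SE 0.38, adjusted p = 0.000188), and that of SPANXB1 was 3.79 without RFP replicate 1.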

How the data were processed

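RNA of MDA-MB-231 cells was measured by bulk RNA-seq with single-end reads from a stranded kit, per the labels' protocols. The values used were raw counts per Ensembl gene as deposited, in a table of the authors with 3 Kir2.1, 3 RFP and 2 Kv1.5 libraries. FastQC, Trimmomatic, STAR, edgeR and the build GRCh38 are named per the submitters' processing notes. How reads were counted, with what strand setting, and all versions are not given in the sources used, so overlapping and antisense genes cannot be told apart. The authors' deposited table of log2 fold changes with p-values and an FDR, and its other values, was not used for any result.

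Counts were filtered by group with edgeR's filterByExpr, scaled by TMM and fitted with the quasi-likelihood test over all 8 libraries (edgeR 4.0.16 with limma 3.58.1, R 4.3.3), which left 5 residual degrees of freedom. The Kv1.5 libraries entered the filter, the scaling and the estimate of the spread, but not the contrast. With them 16686 genes were tested, and 15606 in the fit of the Kir2.1 and RFP libraries alone. The Kir2.1 minus RFP contrast was called at a Benjamini-Hochberg adjusted p under 0.05. The SE of a log2 fold change was its size divided by the square root of F. Libraries held 30970235 to 42753422 counts, and a gene at 0 in a group was given as a bound from 3 counts over the group. Intervals are 95% limits of counting error. Bounds take the count of the other group as observed and leave out its counting error. Symbols were known for 60445 of 60715 IDs and GENCODE 29 positions on GRCh38 for 58453. Groups came from the labels. No pair of replicates agreed within sampling noise.

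Genes to name were chosen by a rule of size (the 12 largest rises and falls in fold, the 8 largest in CPM, and up to 3 members per list, at 5 CPM or more), and further list members were picked after their values were seen. Not every gene of the rule is described. AFAP1-AS1, CCBE1, CST1, TP53I11, MXRA8, PAGE5, TP73-AS1 and MMP1 among the largest rises, FKBP10, TM4SF18, ENG, SOBP and MMP2 among the largest falls, and most genes of the largest changes in CPM were left out. Some list members are counted but not reported by name. The members and gene lists were chosen with earlier results of these data known. The fit was checked on simulated data with 150 changed genes at each size, summed over 3 runs of 15787 to 15792 tested genes. A far smaller part of the genes was changed there than was called here. The adjusted p depends on that part, so the recovery cannot be carried over as such to these data. In the simulation the fit recovered 6% of genes changed 1.5-fold, 46% at 2-fold, 95.3% at 4-fold and 98% at 8-fold. A gene that did not pass is thus not shown to be unchanged. Alternatives were RLE factors, other filters, DESeq2 1.42.0, only the 2 groups, a replicate block, a stricter threshold, each library left out, and shifted bins left out.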

Additional observations from a re-analysis of the deposited data

How the results depend on the processing

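The count of 3417 called genes was 1680 at an adjusted p under 0.01 and 1974 to 2700 with 1 library left out, lowest without Kir2.1 replicate 2 and 2142 without RFP replicate 2. The 2233 genes with at least a 2-fold change became 1467 at that stricter threshold and 1661 to 2025 with 1 library left out. Over all gene lists the 562 called genes became 324 at that threshold and 371 to 506 with 1 library left out. Fewer samples left fewer residual degrees of freedom in the fits without a library, 4 against 5. RLE factors gave 3425 calls, no filter on low counts 4147, a filter of 1 CPM in 3 libraries 2887, the Kir2.1 and RFP libraries alone 4278 and DESeq2 3805. Leaving out the genes of shifted 10 Mb bins, an alternative chosen after seeing the data, left 2524 calls, 1705 of them at least 2-fold. None of the 3417 called genes changed sign under the alternatives in which they were called. For the genes named by rule, 1809 values under alternatives kept their direction and side of the threshold and 171 kept their direction but missed it.

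Counts of some gene lists moved by over 1.5 times under the other alternatives, beside those given with the lists. With no filter on low counts the falls became 5 of AP-1 factors (against 1), 9 of YAP targets (against 5), 7 of nuclear receptors (against 4) and 3 of respiratory chain subunits (against 1), and the rises of p53 targets 5 (against 3). In the fit of the Kir2.1 and RFP libraries alone the falls became 6 of HOX genes (against 3), 9 of DNA methylation and deacetylase genes (against 5) and 3 of AP-1 factors, and the rises 6 of p53 targets, 6 of stress response genes (against 2) and 5 of cholesterol genes (against 2). With the filter of 1 CPM, which tests fewer genes, the falls became 5 of G protein-coupled receptors (against 9), 4 of lipid genes (against 7), 2 of cadherins and 2 of potassium channels (each against 4). With DESeq2 the falls became 7 of nuclear receptors, 8 of DNA methylation and deacetylase genes and 3 of AP-1 factors. With the replicate block the rises became 6 of cholesterol genes, 5 of p53 targets and 4 of stress response genes, and the falls 8 of other channels and pumps (against 5). Apart from the stricter threshold, the other such moves were of at most 2 genes. At an adjusted p under 0.01 more lists moved, of which some are given. The rises became 9 of antigen presentation genes (against 17) and 3 of cytokine receptors (against 9). They became 3 of DNA methylation and deacetylase genes (against 10) and 2 of TGF-beta genes (against 9). The falls became 8 of stress response genes (against 14), 8 of TGF-beta genes (against 16) and 2 of replication genes (against 8).

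With the replicate number as a block, 3706 genes were called, 2187 of them at least 2-fold, and 610 genes over all lists. Deviations of same-numbered libraries from their group means correlated at 0.181, -0.094 and 0.157 for numbers 1, 2 and 3. A correlation over 0.1 was thus not reached in every pair. Deviations of 3 libraries from their own mean are not independent, so these values cannot decide whether the numbers pair the libraries. Of 3 Kir2.1 libraries, those numbered 1 and 3 correlated best with their own number and that numbered 2 did not.

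With 3 libraries per group the median SE was 0.256 on the log2 scale, which limits the size of change that can be detected. Libraries made from separate transductions, DNA copy number, the channel without EGFP and EGFP alone were not analysed here.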
